A study of Mus musculus with 6 samples.

Results

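Glucocorticoid-responsive genes and metallothioneins were examined in the spinal cord of mice with and without Nogo-A. The set was 10 genes chosen by name, Nr3c1, Fkbp5, Sgk1, Tsc22d3, Zbtb16, Pdk4, Cdkn1a, Errfi1, Mt1 and Mt2, and every probe set annotated to them was taken. These were 25 of the 45101 probe sets on the array, and the genes were 10 of 18194 genes with a probe set of their own. Spinal cords came from 3 wild type C57Bl/6 mice and from 3 C57Bl/6 mice with the Nogo-A knockout, all male, untreated and aged 4 months. Each animal had its own Affymetrix Mouse 430 2.0 array, on which a probe set is a group of short oligonucleotides that together report on a transcript. Nogo-A is the longest protein made from Rtn4, and it restrains the growth of axons. How the knockout allele was made is not given in the sources used here.

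Glucocorticoids, corticosterone in the mouse, are hormones of the adrenal gland that rise with stress and with the daily rhythm. They bind the glucocorticoid receptor, the product of Nr3c1, which then moves to the nucleus and switches genes on through response elements in the DNA. In the spinal cord these genes are read in glia, vessels and neurons alike. Metallothioneins are small cysteine-rich proteins that bind zinc and copper, and Mt1 and Mt2 respond to glucocorticoids as well as to zinc, which acts through the factor Mtf1 and the metal response elements of their promoters.

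Promoter windows are shown for both metallothioneins, whose signals are compared most closely below, and for Sgk1, the gene among the 8 with windows read that had a complete palindromic receptor element. The windows are RefSeq sequences of assembly GRCm38.p6 that run from 250 bases before a transcript start to 50 bases after it. They were read for 8 of the 10 genes, with none for Nr3c1 and Zbtb16. The search in these genes left out a chromosome that the count over all windows kept, so a window of Nr3c1 or Zbtb16 there would have been missed. Capitals mark the core of the metal response element, TGCACNC or TGCGCNC on either strand, in Mt2 and Mt1, and in Sgk1 the palindromic receptor element, AGAACA and TGTTCT with any 3 bases between them.
Mt2 window, chr8:94172368-94172667, plus strand: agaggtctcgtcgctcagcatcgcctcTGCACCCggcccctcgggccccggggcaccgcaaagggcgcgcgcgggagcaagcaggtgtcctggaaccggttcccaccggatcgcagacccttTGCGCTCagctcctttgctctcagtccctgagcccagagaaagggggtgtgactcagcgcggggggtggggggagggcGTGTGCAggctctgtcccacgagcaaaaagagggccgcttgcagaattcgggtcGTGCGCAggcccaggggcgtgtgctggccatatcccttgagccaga
Mt1 window, chr8:94178839-94179138, plus strand: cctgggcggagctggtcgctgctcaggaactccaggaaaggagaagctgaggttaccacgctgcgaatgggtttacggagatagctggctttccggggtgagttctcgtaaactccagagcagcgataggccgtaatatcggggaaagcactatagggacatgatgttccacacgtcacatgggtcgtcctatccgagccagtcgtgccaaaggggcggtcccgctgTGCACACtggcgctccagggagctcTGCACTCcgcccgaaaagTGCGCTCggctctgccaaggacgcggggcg
Sgk1 window, chr10:21993640-21993939, plus strand: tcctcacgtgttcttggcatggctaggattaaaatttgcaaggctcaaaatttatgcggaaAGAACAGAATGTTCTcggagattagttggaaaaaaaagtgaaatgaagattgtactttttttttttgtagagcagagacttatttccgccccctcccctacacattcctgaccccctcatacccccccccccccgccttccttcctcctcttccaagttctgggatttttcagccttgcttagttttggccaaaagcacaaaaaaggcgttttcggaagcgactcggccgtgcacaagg

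The Mt2 window held 4 metal element cores and the Mt1 window 3, with no overlap between matches. Over all 32851 windows in the table, 25.7% held at least 1 such core, 1.97% held at least 3 and 0.517% at least 4. Cores were found at 1 other place among the 17 windows read for 8 of these genes, in another window of Sgk1. The palindrome was found in 3 of all windows, or 0.00913%, and its match in Sgk1 began 189 bases before that transcript start (position -189). A match is a description of letters in a window, and receptor or Mtf1 binding was not measured.

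All values below are signals on a linear scale, which the authors had scaled so that the trimmed mean of every array was about 500. Median signals were 148.2 to 195.6 on the wild type arrays and 144.1 to 149.3 on the knockout arrays, and the 5th percentile was 5.26 to 19.98 and 4.57 to 4.92. Dim signals were therefore higher in wild type replicates 2 and 3, most of all in replicate 3. Wild type replicate 1, with a median of 148.2 and a 5th percentile of 5.26, lay near the knockouts. These differences between arrays bear on every dim probe set here. The knockout label was checked at Rtn4, where the probe set 1437224_at read 2790 to 3560 in wild type and 5.08 to 78.2 in knockout (limma adjusted p = 0.0151). The other 4 Rtn4 probe sets were not reduced, with log2 changes of 0.40 to 0.70 toward the knockout, none past the adjusted threshold. As defining markers of the tissue, the myelin gene Mbp read 38050 to 52810, the neuronal gene Snap25 24220 to 33800 and the astrocyte gene Gfap 3726 to 11550, while Chat, of cholinergic neurons, was under the array median everywhere at 75.1 to 142. Skeletal muscle genes set wild type replicate 3 and knockout replicate 2 apart. The summed signal of 12 of them was 14276 and 26598 there and 6787 to 7864 on the other 4 arrays. In whole tissue, fewer cells of a type and less RNA per cell cannot be told apart.

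Genotypes were compared on log2 signals with limma. Testing was limited to probe sets that reached their array's median in 2 or more of the 3 animals of either genotype. Of the 25 probe sets 18 were tested, at least 1 for each of the 10 genes, and 7 were too dim. Of the tested, 17 passed that filter in both genotypes and the Zbtb16 probe set 1419874_x_at passed through wild type alone. None of the 18 passed an adjusted p of 0.05 over all 23525 tested probe sets, where 0.00425% were called lower and 0% higher, and their adjusted p-values in limma ran from 0.591 to 0.994. In tests on simulated data limma recovered 2.39% of 1.5-fold, 31.6% of 2-fold and 78.5% of 4-fold changes over all 23525 tested probe sets. Moderate changes were thus mostly missed in the simulation with 3 animals a group. These rates were not split by brightness. Within genotype, the median SD of log2 signal was 0.4975 in the dimmest of 10 groups by signal and 0.1165 in the brightest. The rates therefore cannot tell how often changes would be missed at bright probe sets, such as those of Mt1 and Mt2.

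**Figure D1:**
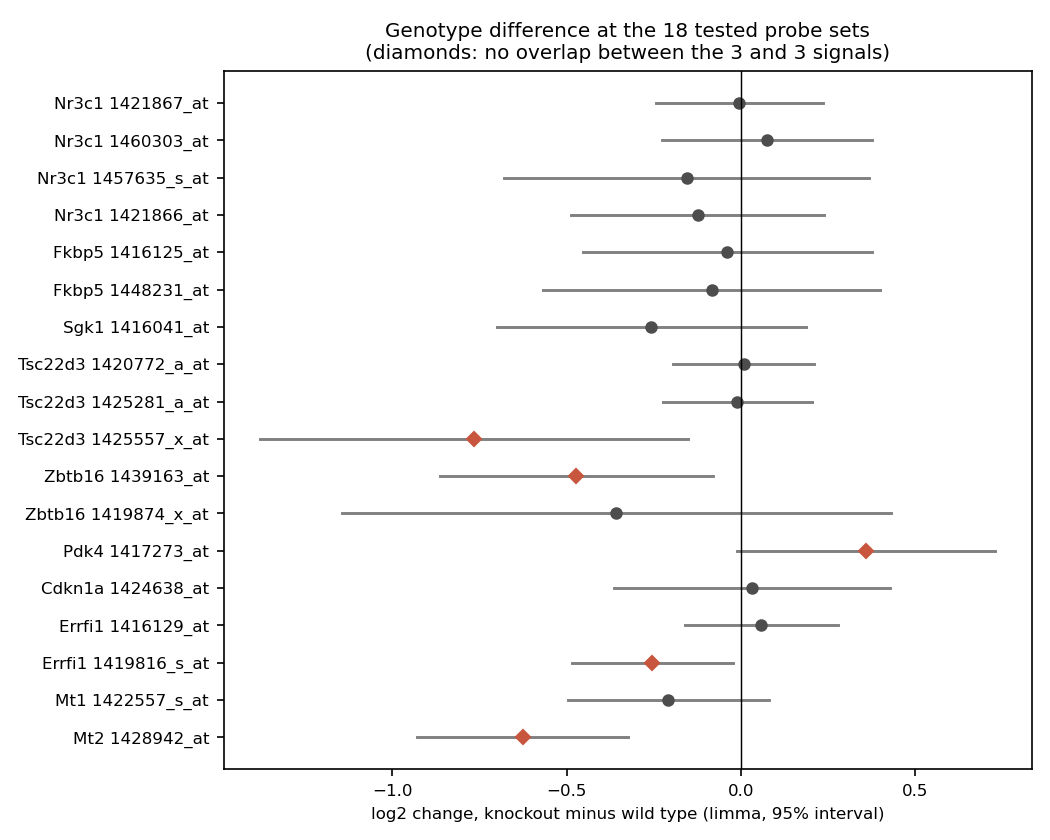
Log2 change of knockout minus wild type at the 18 tested probe sets, with 95% intervals from limma, by gene and probe set. The 5 diamonds mark probe sets whose signals did not overlap between the genotypes. Pdk4 lies to the right of 0 and the probe sets of Mt2, Zbtb16, Errfi1 and Tsc22d3 to the left. That of Zbtb16, of Errfi1 and of Tsc22d3 overlapped when arrays were divided by their medians, and all 5 stayed apart after quantile normalization.

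Without adjustment, 4 of the 18 had a limma p under 0.05 and all 4 were on the lower side, against 3.98% of all tested probe sets on that side and 4.31% on the other, where the set had 0, and against 8.29% in either direction. Signals of knockout and wild type did not overlap at 5 of the 18, 4 lower and 1 higher, against 6.62% and 7.85% of all tested probe sets and 14.5% in either direction. The lower side of both counts shrank on division by the array median, but not after quantile normalization. With each array divided by its own median, which moved the median change of all tested probe sets from 0.0079 to 0.23, 1 probe set lay entirely lower and 1 entirely higher, against 2.07% and 19.9% of all. At an unadjusted limma p under 0.05 there were then 2 lower, Mt2 and Tsc22d3 (1425557_x_at), and 1 higher, Pdk4, against 1.13% and 11.9%. Quantile normalization gave 5 lower and 1 higher by that rule, against 2.80% and 3.67%. Signals then did not overlap at 4 lower and 1 higher, against 5.48% and 7.17% of all. Mt2 and Pdk4 kept their separation under the deposited scaling, under division by the median and after quantile normalization. Several of the 18 report on the same gene and are not separate evidence.

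At the brightest probe set of each gene, Mt2 had the largest log2 change and the smallest p-value of the 10. Its probe set, 1428942_at, read 6073, 8311 and 9085 in wild type replicates 1 to 3 and 4628, 5308 and 5077 in the knockouts. Every knockout signal lay under every wild type signal, and the 3 knockouts sat close together while the wild types spread over a ratio of 1.496 from highest to lowest. The means were 7823 ± 1565 and 5004 ± 346 (SD, n = 3 each), which is -0.63 on the log2 scale (standard error 0.14), or 0.648-fold with a 95% interval of 0.526 to 0.799. The difference had an unadjusted p of 0.000798 in limma but an adjusted p of 0.591, and an exact two-sided permutation test gave p = 0.1, the smallest it can give for 3 against 3 animals. It was lower in 3 of 3 knockouts. Without wild type replicate 1, the lowest of the wild types, the log2 change was -0.80 and the limma adjusted p was 0.0452. This was the only alternative of 16 under which Mt2, or any of the 18 probe sets, passed, and the adjusted p of Mt2 ranged from 0.0452 to 0.974 over them. Division by the array median gave the smallest change, -0.41 on the log2 scale (limma unadjusted p = 0.0375, adjusted p = 0.382).

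Mt1, the neighbour and close relative of Mt2, did not separate the genotypes. Its bright probe set, 1422557_s_at, read 12801, 19351 and 16391 in wild type and 13160, 13615 and 14701 in knockout. The s suffix marks a probe set that can match several transcripts, and its specificity for Mt1 was not tested. The knockouts fell inside the wild type range, near its lower end, and again lay closer together than the wild types. The log2 change was -0.21 with a 95% interval of -0.50 to 0.081 (limma adjusted p = 0.679), its sign turned to 0.013 when arrays were divided by their medians, and after quantile normalization it was -0.32 (unadjusted p = 0.0487 in limma). The change also rested on wild type replicate 2, the highest, without which it was -0.069. A dimmer probe set, 1451612_at, was under the filter at 74.3 to 172.

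The pair could also be set against each other on the same array, where scaling plays no part. This was chosen after their values were seen. The log2 ratio of Mt2 to Mt1 signal was -1.08, -1.22 and -0.85 in wild type and -1.51, -1.36 and -1.53 in knockout. All 3 knockouts lay under all 3 wild types, with a mean difference of -0.42. This restates the values above on a scale free of array scaling and is given as a description. It takes the Mt1 probe set as specific to Mt1, which was not tested. Leaving out each animal in turn gave -0.50 to -0.32.

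Mt3, the metallothionein of the nervous system, is not among the 10 but belongs to a list of metal genes, and it pointed the other way. It read 5413, 3113 and 7950 in wild type and 8167, 6252 and 10599 in knockout. The genotypes overlapped, because wild type replicate 3 was above knockout replicate 2. Its log2 change of 0.67 had a standard error of 0.28 (limma unadjusted p = 0.0359, adjusted p = 0.595), and it ranged from 0.31 without wild type replicate 2 to 0.99 without wild type replicate 3. It was 1.18 without both muscle arrays (adjusted p = 0.0922 in limma) and 0.89 with arrays divided by their medians. Gfap, which marks astrocytes, moved with it across arrays at 6146, 3726 and 9057 in wild type and 7761, 7542 and 11550 in knockout. Both genes were lowest in wild type replicate 2 and highest in knockout replicate 3. The summed signal of 8 astrocyte markers, Gfap among them, was 87512, 89544 and 79046 in wild type and 89707, 89317 and 93235 in knockout. Among the wild types that sum was highest in replicate 2 and lowest in replicate 3, the reverse of Mt3 and Gfap. The part of astrocytes in the Mt3 values was not tested.

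**Figure D2:**
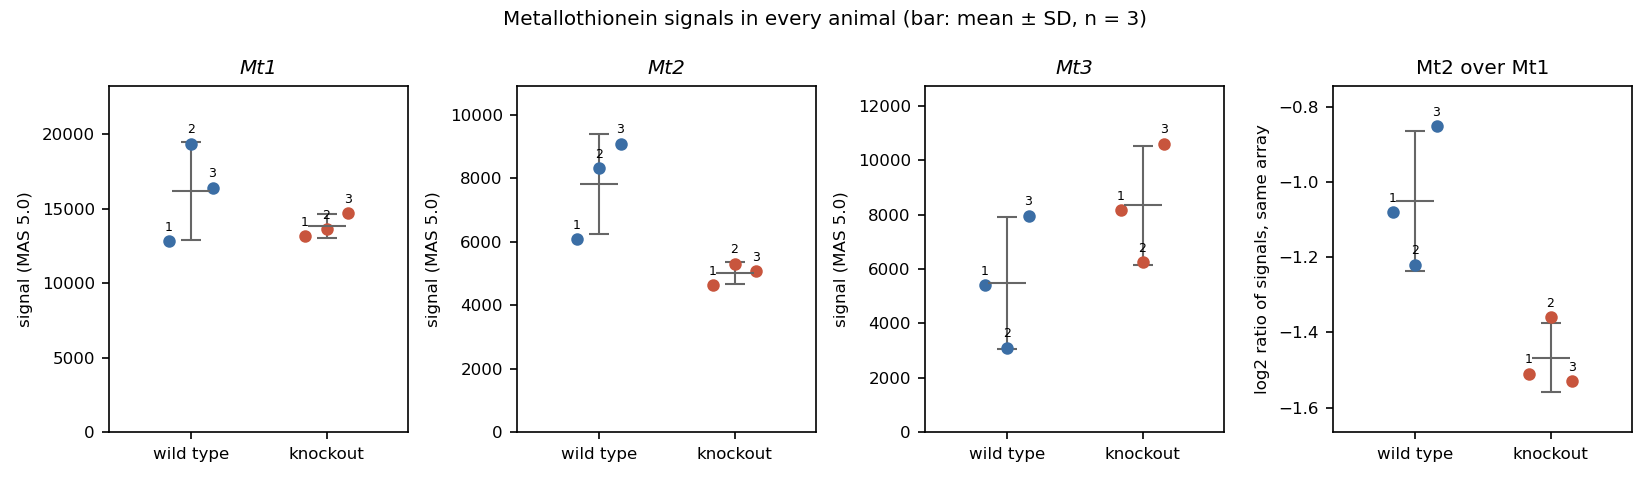
Signals of Mt1, Mt2 and Mt3 in every animal, and the log2 ratio of Mt2 to Mt1 on the same array, by genotype, with numbers giving the replicate and bars the mean ± SD (n = 3). Mt2 and the ratio separate the genotypes, while Mt1 and Mt3 overlap.

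The receptor itself did not separate the genotypes at any tested probe set. Nr3c1 had 6 probe sets, and the brightest, 1421867_at, read 1731, 1779 and 1699 in wild type and 1737, 1900 and 1571 in knockout. The wild types fell within 1.047-fold of each other, inside the knockout range. The log2 change was -0.0043 with a 95% interval of -0.24 to 0.24 (limma adjusted p = 0.994), which does not exclude changes smaller than that, and its sign turned under division by the array median (0.22). The next probe set, 1460303_at, read 1605, 1467 and 1130 in wild type and 1447, 1492 and 1442 in knockout, with 1 low value in wild type replicate 3. Another, 1457635_s_at, was low in the third animal of both genotypes at 439 and 390, against 613 to 769 on the other 4 arrays. The fourth read 373 to 414 and 342 to 385. The 2 dimmest Nr3c1 probe sets were under the filter, and no signal there was above 149.

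Fkbp5, a co-chaperone that the receptor induces and that lowers the receptor's hormone binding in turn, did not differ by more than the animals did. Its brightest probe set, 1416125_at, read 468, 504 and 485 in wild type and 602, 476 and 368 in knockout. The 3 knockouts spanned both ends of the range, 1.636-fold from highest to lowest, and the wild types lay between them within 1.078-fold. The log2 change was -0.039 with a 95% interval of -0.45 to 0.38 (limma adjusted p = 0.969), with the sign turned at division by the array median (0.18). The other tested probe set read 233 to 292 in wild type and 218 to 282 in knockout, and the dimmest, 1447736_at, was under the filter at 4.67 to 19.7 and 2.58 to 4.23.

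Sgk1, a kinase that controls ion channels and transporters, varied between animals of the same genotype. It read 1956, 3291 and 3170 in wild type and 2874, 1888 and 2202 in knockout. High and low animals occurred in both groups: wild type replicate 1 was among the low ones and knockout replicate 1 among the high ones. The log2 change was -0.26 with a 95% interval of -0.70 to 0.19 (limma adjusted p = 0.736). It was -0.50 with wild type replicate 1 left out, -0.12 with wild type replicate 2 or knockout replicate 2 left out, and -0.012 with neither of the arrays high in muscle signal.

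Tsc22d3 encodes GILZ, a leucine zipper protein that carries part of the anti-inflammatory effect of glucocorticoids. Its brightest probe set, 1420772_a_at, read 3425, 3568 and 3215 in wild type and 3481, 3309 and 3469 in knockout, all within 1.11-fold. The next, 1425281_a_at, was as even, at 3007 to 3382 and 3024 to 3404. Their log2 changes were 0.0080 (95% interval -0.19 to 0.21) and -0.011 (-0.22 to 0.20), and neither kept its sign across scalings, with -0.063 after quantile normalization and 0.21 after division by the array median.

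A dimmer probe set of Tsc22d3 gave other values. 1425557_x_at, whose suffix marks probes that can also bind other transcripts, read 473, 384 and 941 in wild type and 315, 319 and 345 in knockout. The genotypes did not overlap, but wild type replicate 3 alone was near 941, and the other wild types were much closer to the knockouts. Its log2 change of -0.76 had a standard error of 0.28 (limma unadjusted p = 0.0189, adjusted p = 0.591), and -0.38 without wild type replicate 3. Replicate 3 also had the highest dim signals, and their part in this value was not tested. The fourth probe set was under the filter at 23.3 to 160.

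Zbtb16, a zinc finger repressor also called PLZF that glucocorticoids induce in many cells, had lower signals in knockout at its brightest probe set but did not pass the adjusted threshold. 1439163_at read 481, 443 and 503 in wild type and 406, 342 and 289 in knockout. All wild types lay above all knockouts. The means were 476 ± 30.0 and 346 ± 58.3 (SD, n = 3 each), or 0.721-fold with a 95% interval of 0.55 to 0.946 (limma unadjusted p = 0.0223, adjusted p = 0.594; exact two-sided permutation p = 0.1, the smallest possible). With arrays divided by their medians the log2 change went from -0.47 to -0.25 and the genotypes overlapped. After quantile normalization it was -0.42 with no overlap. The other tested probe set, 1419874_x_at, read 121, 284 and 223 in wild type and 177, 145 and 142 in knockout, which overlap. The third, 1427638_at, reached the array median on 1 array, was not tested, and read 124, 160 and 380 against 65.2, 108 and 75.2.

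Pdk4, a mitochondrial kinase that inhibits pyruvate dehydrogenase, was the gene of the set with every knockout above every wild type. It read 308, 356 and 355 in wild type and 395, 473 and 440 in knockout. The means were 340 ± 27.1 and 436 ± 39.3 (SD, n = 3 each), 1.28-fold with a 95% interval of 0.992 to 1.66 (limma unadjusted p = 0.0566, adjusted p = 0.607; exact two-sided permutation p = 0.1, the smallest possible). The log2 change of 0.36 was 0.58 with arrays divided by their medians (limma unadjusted p = 0.00837, adjusted p = 0.382) and 0.43 after quantile normalization. The highest Pdk4 signal was on knockout replicate 2, the array with the most muscle signal, and without both muscle arrays the log2 change was 0.33.

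Cdkn1a and Errfi1 are growth brakes that glucocorticoids can raise, the former an inhibitor of cyclin-dependent kinases also called p21 and the latter an inhibitor of the EGF receptor. Cdkn1a read 694, 837 and 699 in wild type and 863, 570 and 881 in knockout at its bright probe set, 1424638_at. The lowest and the highest animals were both knockouts. Its log2 change was 0.032 with a 95% interval of -0.36 to 0.43 (limma adjusted p = 0.974), and its sign turned without any of 4 single animals. The dim probe set read 25.1 to 83.4 and 9.68 to 18.4, under the filter.

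Errfi1 had 2 bright probe sets that differed. 1416129_at read 2676, 2458 and 2414 in wild type and 2733, 2427 and 2706 in knockout, which overlap. 1419816_s_at read 1413, 1403 and 1469 in wild type and 1171, 1219 and 1204 in knockout, with no overlap and within 1.047-fold inside each genotype. At the latter the log2 change of -0.25 had a standard error of 0.10 (limma unadjusted p = 0.0336, adjusted p = 0.595). It was -0.033 with arrays divided by their medians, where the genotypes overlapped, and -0.285 after quantile normalization, where they did not. At 1416129_at the log2 change was 0.059. An s suffix marks a probe set that can match more than 1 transcript.

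**Figure D3:**
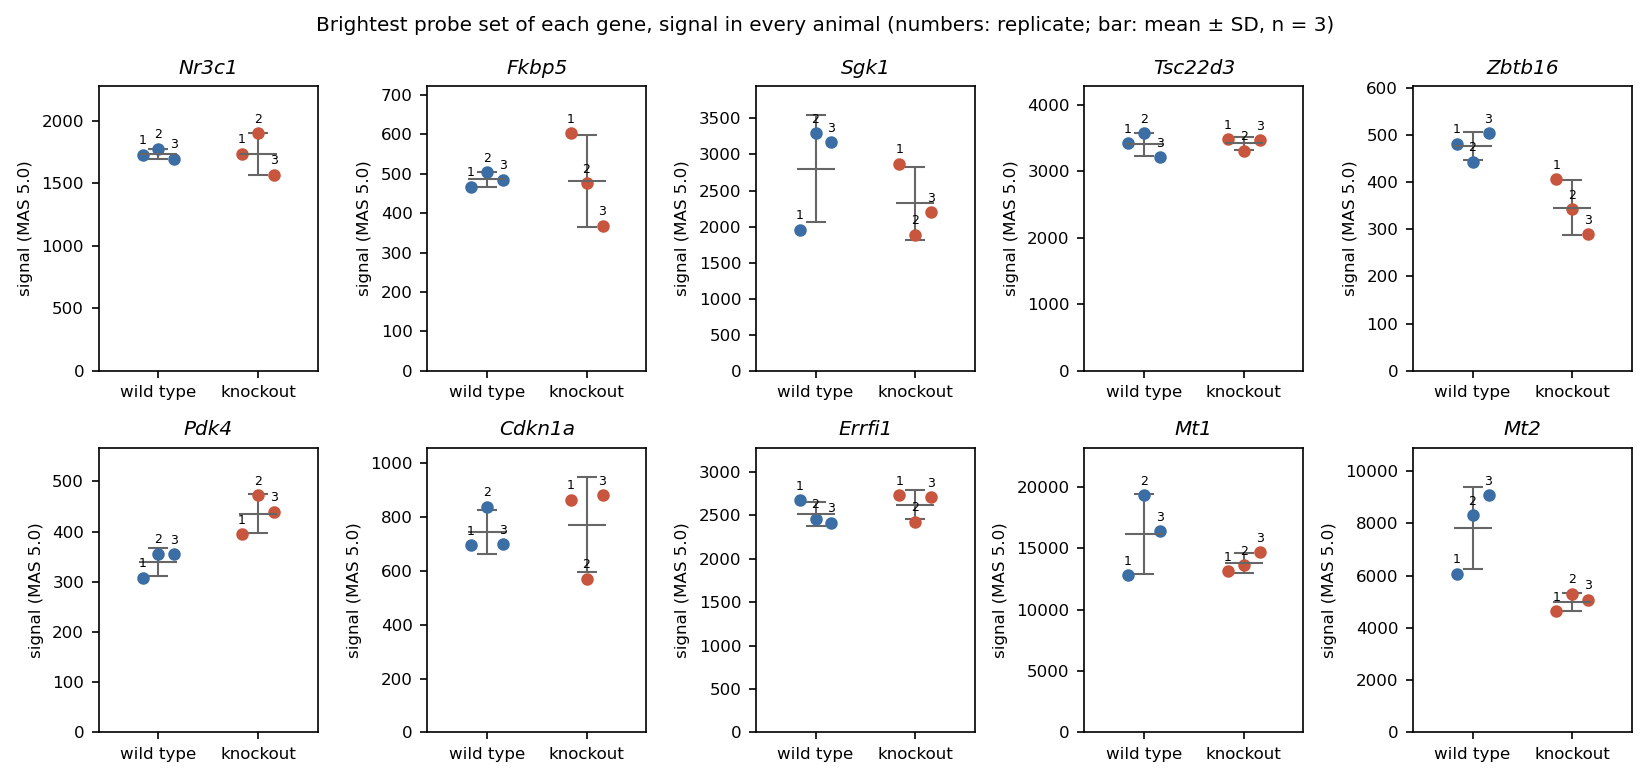
Signal of the brightest probe set of each of the 10 genes in every animal, with numbers giving the replicate and bars the mean ± SD (n = 3). Mt2, Zbtb16 and Pdk4 separate the genotypes, and the other 7 genes overlap.

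No animal was high or low across the set. At the brightest probe set of each gene, the highest of the 6 arrays was wild type replicate 2 for 3 genes, wild type replicate 3, knockout replicate 1 and knockout replicate 2 for 2 genes each, and knockout replicate 3 for 1. Fkbp5 and Sgk1 were both high in knockout replicate 1, and Mt1 and Mt2 were both low in wild type replicate 1. Fkbp5 was lowest in knockout replicate 3 and Sgk1 in knockout replicate 2.

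Spread between animals of a genotype was taken as the SD of log2 signal with genotype means removed. Its median over the 18 probe sets was 0.185, against 0.216 over all tested probe sets, and because dim probe sets spread more, each was also set beside those of like brightness, in 10 groups by mean signal. Sgk1 had an SD of 0.367, larger than 97.4% of probe sets of its brightness. The Tsc22d3 probe set 1425557_x_at, at 0.481, exceeded 96.1%, and the Nr3c1 probe set 1457635_s_at, at 0.405, exceeded 94.8%. Mt2 (0.227) and Mt1 (0.22) exceeded 89.3% and 88.6%, and Cdkn1a (0.273) exceeded 83.8%. At the even end were the Errfi1 probe set 1419816_s_at, at 0.0329 larger than 0.382% of its group, the Nr3c1 probe set 1421866_at, with 2.34%, and the Tsc22d3 probe set 1420772_a_at, at 0.0608 with 8.07%. Of the 18, 9 exceeded the middle of their group and 3 exceeded 90% of it.

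**Figure D4:**
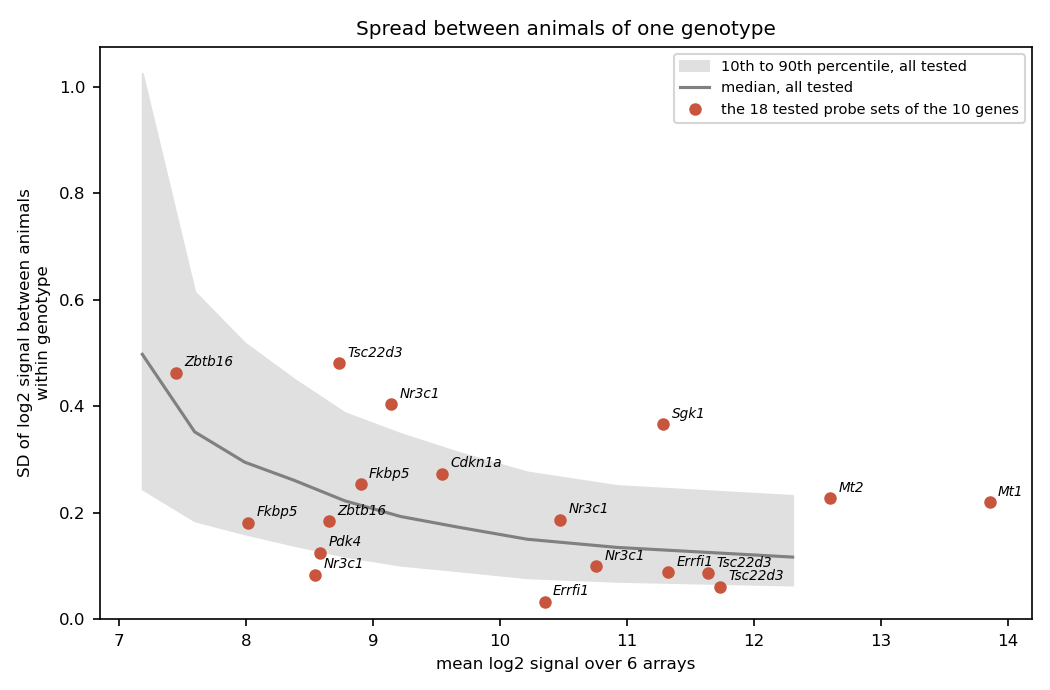
SD of log2 signal between animals within genotype against mean log2 signal, for the 18 tested probe sets and, as line and shading, the median and the 10th to 90th percentile of all tested probe sets in 10 groups by signal. Sgk1, 1 probe set of Tsc22d3 and 1 of Nr3c1 lie above the shading, and 1 probe set of Errfi1 lies at the bottom.

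Genes around the receptor were read from a list of its chaperones, cofactors and hormone enzymes. Of 22 genes, 17 were tested at their brightest probe set and 0 had an unadjusted limma p under 0.05 in either direction, against 8.17% of all 11645 tested genes, and 0 passed with adjustment. The median log2 change was 0.097 against 0.028 over all tested genes, and 13 of 17 (76.5%) lay above 0, against 55.8% of all tested genes. Nr3c2, the mineralocorticoid receptor that binds the same hormone, read 490, 563 and 529 in wild type and 556, 496 and 530 in knockout, which overlap. Hsd11b1, the enzyme that regenerates active corticosterone inside cells, read 2236, 1602 and 1428 in wild type and 2105, 2321 and 1952 in knockout, with wild type replicate 1 among the knockouts (log2 change 0.30, limma adjusted p = 0.631). That change was 0.49 when wild type replicate 1 was left out, 0.16 when replicate 3 was, 0.099 without both muscle arrays and 0.52 with arrays divided by their medians. Fkbp4, a co-chaperone that favours transport of the receptor to the nucleus, read 1347, 1226 and 1416 against 1664, 1375 and 1669 (adjusted p = 0.625 in limma). Ppp5c, a phosphatase in the receptor complex, and the chaperone Hspa8 followed at 0.31 and 0.19 on the log2 scale, with adjusted p-values of 0.619 and 0.625 in limma.

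Other glucocorticoid-induced genes were mixed in direction. Of 40 listed genes 36 were tested, and 4 were higher and 4 lower at an unadjusted limma p under 0.05, against 4.93% and 3.24% of all tested genes. None passed with adjustment. Signals did not overlap at 4 genes on the higher and 3 on the lower side, against 9.05% and 5.37% of all tested genes and 14.4% in either direction. The median log2 change was 0.018, and 20 of 36 (55.6%) lay above 0, against 55.8% of all tested genes. Per1, a clock gene that glucocorticoids induce within the hour, read 339, 445 and 318 in wild type and 353, 324 and 371 in knockout, so that the knockouts lay inside the wild type range (log2 change -0.059, limma adjusted p = 0.949). Klf9, a zinc finger factor induced in neurons and glia, read 5790, 6520 and 5647 against 6163, 5537 and 6049 at its brightest probe set, which overlap (adjusted p = 0.976 in limma). Both turned sign when arrays were divided by their medians, at 0.16 and 0.20. Ddit4, an inhibitor of mTOR, read 1435, 1439 and 1702 against 1768, 1599 and 1617 (log2 change 0.13, adjusted p = 0.771 in limma).

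The smallest p-values in that list belonged to Angptl4, Rhob and Il6ra. Angptl4, a lipase inhibitor, read 256, 190 and 356 in wild type and 139, 118 and 136 in knockout, with no overlap (log2 change -0.99, standard error 0.31, adjusted p = 0.591 in limma). Rhob, a small GTPase, read 8883, 6679 and 9271 against 10351, 9987 and 13035, again with no overlap but on the higher side (log2 change 0.43, adjusted p = 0.591 in limma). Il6ra, a receptor subunit for interleukin-6, read 172, 275 and 259 against 135, 131 and 25.1. Its log2 change of -1.60 was -0.79 without knockout replicate 3. Angptl4 and Il6ra were under the array median on all 3 knockout arrays and were tested only because wild type was above it, so the filter favoured a lower value in knockout for these 2 of the 4 lower genes. Rhob ranged from 0.28 without wild type replicate 2 to 0.65 with arrays divided by their medians.

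Of 28 metal and zinc genes 25 were tested, and 1 was higher and 1 lower at an unadjusted limma p under 0.05, against 4.93% and 3.24%. Mt3 was the higher one. The lower one was Slc39a8, a zinc importer, which read 219, 246 and 215 in wild type and 110, 159 and 169 in knockout (log2 change -0.65, adjusted p = 0.600 in limma). Those signals were dim, and knockout replicate 1 was under its array median. The other Slc39a8 probe set, 1448482_at, was under the filter and read 101, 49.8 and 86.9 against 150, 101 and 85.6, which overlap. Mtf1, the factor that senses zinc, read 423, 314 and 400 against 319, 356 and 326 at its brightest probe set, with a log2 change of -0.17 whose sign turned on division by the array median (0.048). Slc30a1, a zinc exporter that Mtf1 switches on, read 923, 804 and 768 in wild type and 878, 1024 and 1152 in knockout, with an overlap at knockout replicate 1 (log2 change 0.29, adjusted p = 0.612 in limma). Nqo1, a quinone reductase, read 316, 326 and 421 against 217, 292 and 263 without overlap (log2 change -0.46, adjusted p = 0.604 in limma). The median of the list was 0.021. Signals did not overlap at 0 of its genes on the higher side and 3 on the lower, Slc39a8, Nqo1 and Slc39a14, against 9.05% and 5.37% of all tested genes.

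**Figure D5:**
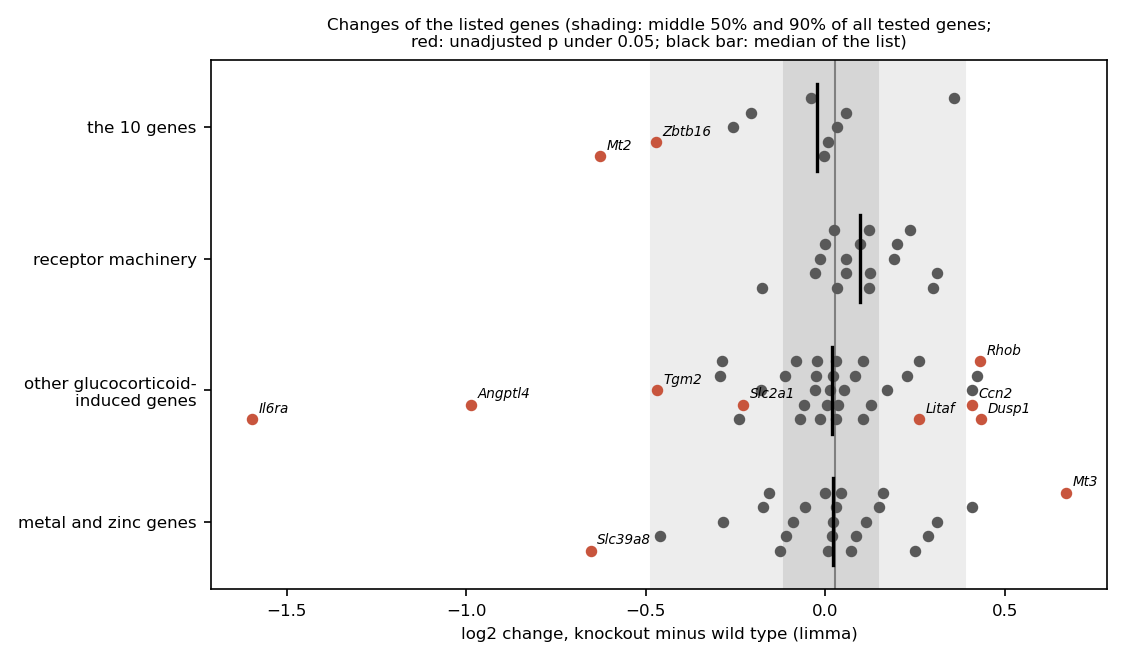
Log2 change of knockout minus wild type for the 10 genes and the 3 lists, 1 point per gene at its brightest tested probe set, with black bars for list medians and shading for the middle 50% and 90% of all tested genes. Medians of -0.022, 0.097, 0.018 and 0.021 from top to bottom lie near that of all tested genes, and red points mark an unadjusted limma p under 0.05.

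Markers of other cells stood as follows beside the 10 genes. Summed signals of 7 oligodendrocyte markers were 106564 to 110512 in wild type and 121946 to 134973 in knockout, of 7 endothelial markers 12287 to 12958 and 12987 to 13409, and of 9 meningeal and connective tissue markers 34498 to 36308 and 36986 to 41866. These 3 sums did not overlap and were on the higher side in knockout, the side of Pdk4 and opposite to Mt2 and Zbtb16. The endothelial sums were only 12958 and 12987 at their nearest. Gene by gene, 0 of 7 tested endothelial genes lay entirely higher and 1 entirely lower. These counts were 4 and 1 of 9 meningeal and connective tissue genes and 3 and 0 of 7 oligodendrocyte genes, against 9.05% and 5.37% of all tested genes. The endothelial gene Cldn5 read 1849, 1897 and 2371 in wild type and 1717, 1856 and 1948 in knockout. Microglial markers, 6 in number, summed to 8893 to 11706 in wild type and 8667 to 9861 in knockout, lowest in replicate 1 of either genotype, as were Mt1 and Mt2. Neuronal markers, 8 in number, summed to 89018 to 108171 and 106858 to 110118. Blood markers (5 of 8 genes with a probe set) summed to 649 to 940 and 886 to 943, and fat markers (4 of 6) to 326 to 640 and 534 to 1581, with the defining fat gene Adipoq at 3.24 to 45.1 on every array. Like the microglial sum, the blood and fat sums were lowest in replicate 1 of either genotype. The part of these cells in the values of the 10 genes was not tested.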

How the data were processed

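Whole spinal cord RNA of 6 mice was measured on 1 Affymetrix Mouse 430 2.0 array each. The deposited intensities are linear signals that the authors made with MAS5 in GCOS 1.4 and scaled per array, per the submitters' processing notes; the later GeneSpring steps in the design text are not in them. Log2 of the deposited intensity was taken with no offset and no further scaling, since division by the array median, the per-chip step of the design text, moved the median change to 0.23; that division was an alternative. Besides 64 control probe sets, probe sets under the 50th percentile on more than 1 array of both genotypes were dropped, which left 23525. Genotypes were compared in limma 3.58.1 under R 4.3.3 (lmFit, eBayes with trend, Benjamini-Hochberg over all tested), which was tested on simulated data. The number of arrays limits precision, and p-values measure the spread between these animals. Platform symbols were updated to RefSeq GRCm38.p6 by gene identifier (34754 of 35890 annotated probe sets matched; 932 had several symbols). List genes stand for their brightest tested probe set. Named were all member probe sets and, per list, the 3 smallest p-values plus Per1, Klf9, Ddit4, Nr3c2, Hsd11b1, Fkbp4, Mt3, Mtf1 and Slc30a1. The members and lists were chosen with earlier results of these data known. Alternatives were other scalings, filters at no, the 25th or the 75th percentile, an offset, no trend, a replicate block, array weights, each array or both muscle arrays left out, the mean of a gene's probe sets, and the methods' t-test.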

Additional observations from a re-analysis of the deposited data

How the results depend on the processing

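Over 640 recomputed values, 563 kept their direction and their side of the threshold, or moved by less than the spread, 45 changed sign, 12 newly passed, 4 no longer passed and 16 list medians moved by more than the spread. Over all tested probe sets limma called 0 higher and 1 lower (at an unadjusted p under 0.05, 1013 and 937), against 3 and 3 with array weights, 1 and 2 without both muscle arrays, 0 lower without the trend and 0 lower by the methods' t-test after Benjamini-Hochberg (527 higher and 609 lower before, at a fold of 1.2, or 2.24% and 2.59%, with Mt2 and Zbtb16 1439163_at among the lower and Pdk4 among the higher, and 0 of these 3 after). Leaving out 1 array gave 0 to 1 higher and 0 to 8 lower, with 8 lower and 1 higher without wild type replicate 1. The share of higher among unadjusted calls was 51.9%, but 91.4% on division by the array median, 38.7%, 76.1% and 32.1% with filters at the 25th, at the 75th and at no percentile, and 37.9% without the trend. Correlations of same-numbered animals' deviations were -0.0346, 0.074 and 0.114, and those of differently numbered animals ran from -0.124 to 0.0801. With 3 animals a group these values cannot decide whether the numbers pair the animals. With the replicate number as a block limma called 3 higher.

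Division by the array median turned the sign of Nr3c1 (1421867_at 0.216, 1457635_s_at 0.0657, 1421866_at 0.0965), Fkbp5 (1416125_at 0.182, 1448231_at 0.137), Tsc22d3 (1425281_a_at 0.21), Mt1 (0.0126), Nr3c2 (0.221), Per1 (0.162), Klf9 (0.205) and Mtf1 (0.0477). Quantile normalization turned Fkbp5 1448231_at (0.0658), Tsc22d3 1420772_a_at (-0.063), Errfi1 1416129_at (-0.00556), Nr3c2 (0.0249) and Per1 (0.0228). Without both muscle arrays Nr3c1 1460303_at (-0.0879), Tsc22d3 1420772_a_at (-0.00883) and 1425281_a_at (0.0319) and Nr3c2 (0.0459) turned, and with array weights Tsc22d3 1420772_a_at (-0.0249) and Cdkn1a (-0.023). The cause was not tested.

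With 1 array left out, log2 changes that turned ranged from -0.0717 to 0.0657 (Nr3c1 1421867_at), -0.0724 to 0.181 (Nr3c1 1460303_at), -0.378 to 0.0738 (Nr3c1 1457635_s_at), -0.214 to 0.141 (Fkbp5 1416125_at), -0.182 to 0.0195 (Fkbp5 1448231_at), -0.0323 to 0.0429 (Tsc22d3 1420772_a_at), -0.0597 to 0.0287 (Tsc22d3 1425281_a_at), -0.0782 to 0.236 (Cdkn1a), -0.0519 to 0.0487 (Nr3c2), -0.154 to 0.0871 (Per1) and -0.0561 to 0.0477 (Klf9). The signs of Mt2, Pdk4, Zbtb16 and Sgk1 and of the Tsc22d3 probe set 1425557_x_at and the Errfi1 probe set 1419816_s_at held under every alternative run. Over all alternatives the log2 change ranged from 0.175 to 0.538 for Ppp5c, 0.0537 to 0.412 for Hspa8, 0.178 to 0.456 for Fkbp4, 0.0803 to 0.347 for Ddit4, 0.194 to 0.508 for Slc30a1, -0.556 to -0.238 for Nqo1 and -0.771 to -0.433 for Slc39a8. Signals near background limit the 7 untested probe sets.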

Other observations

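Probe sets of some list genes had changes of opposite sign, and Ppp5c and Klf9, chosen after their values were seen, are given here. Hspa8 and Mtf1 also had both signs, with unadjusted limma p-values from 0.0763 to 0.534 and from 0.368 to 0.479. Ppp5c read 996, 754 and 1026 in wild type and 1310, 1078 and 1209 in knockout at 1424115_at, but 1224, 1351 and 1457 against 1209, 874 and 618 at 1451242_a_at, with no overlap at either (log2 changes of 0.38 and -0.63, limma adjusted p-values of 0.594 and 0.591). Klf9 was even at its brightest probe set, and 1428289_at overlapped too (log2 change -0.042). Signals lay entirely higher in knockout at 1456341_a_at, 1436952_at and 1436763_a_at. The bright 1456341_a_at read 2404, 2273 and 2405 in wild type and 2536, 2660 and 2498 in knockout (log2 change 0.12, adjusted p = 0.736 in limma). Near the array median, 1436952_at read 144, 133 and 156 against 201, 196 and 322 (log2 change 0.70, adjusted p = 0.598 in limma). Equally dim, 1436763_a_at read 130, 189 and 89.0 against 197, 238 and 220 (log2 change 0.75, adjusted p = 0.605 in limma).

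Of the other glucocorticoid-induced genes with an unadjusted limma p under 0.05, named after their values were seen, Dusp1, a phosphatase of MAP kinases, read 1179, 674 and 1147 in wild type and 1422, 1279 and 1237 in knockout. Litaf and Ccn2 were also on the higher side, at 0.26 and 0.41 on the log2 scale, and Tgm2 and the glucose transporter gene Slc2a1 on the lower side, at -0.47 and -0.23. Slc2a1 read 5210, 6310 and 5108 in wild type and 4804, 4734 and 4594 in knockout, with no overlap. None passed with adjustment.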
